A study of Arabidopsis thaliana with 222 samples.

Results

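The 10 genes described here encode plasma membrane intrinsic proteins (PIPs), the aquaporins of the cell surface, in roots of Arabidopsis thaliana. They were taken by locus from the gene table, 10 of its 32311 genes, and carry the letter names that RefSeq lists beside the numbered ones. The PIP1 class held PIP1A (PIP1;1, AT3G61430), PIP1B (PIP1;2, AT2G45960), PIP1C (PIP1;3, AT1G01620), PIP1E (PIP1;4, AT4G00430) and PIP1D (PIP1;5, AT4G23400). The PIP2 class held PIP2A (PIP2;1, AT3G53420), PIP2B (PIP2;2, AT2G37170), PIP2C (PIP2;3, AT2G37180), PIP2F (PIP2;4, AT5G60660) and PIP3A (PIP2;7, AT4G35100). All 10 passed the filter on low counts, as did 21635 genes in all, and the lowest count of any of them in any library was 510, for PIP2F. PIPs form pores through which water crosses the membrane. PIP2 proteins are efficient water channels by themselves, whereas PIP1 proteins reach the plasma membrane mainly in tetramers with PIP2 proteins, so the mix of both classes bears on how much water a root takes up. In lateral root formation auxin, acting through the transcription factor ARF7, is known to lower the expression of most root PIP genes, and PIP2A is known for its part in the emergence of lateral root primordia.

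The study asked which genes bacteria change in roots whose auxin pathway for lateral roots is impaired. Seedlings grew without microbes, were moved to plates without bacteria (NB, the axenic control) or with a single strain, and their roots were harvested 7 d later, with a minimum of 10 roots in each sample, 3 biological replicates and a repeat of the whole experiment. This gave 37 groups of 6 libraries, 222 libraries in all. The wild type, Col-0, was grown under NB and with each of 16 strains: Acidovorax L76, Chryseobacterium L180 and RMF8, Exiguobacterium L196, Leifsonia L264, Sphingomonas L339, L343 and L412, Bosea L344, Flavobacterium L359, Pararhizobium L384, Methylobacterium L469, Bacillus RMF27 and RCL115, Paenibacillus RMF217 and Luteibacter RMF331. The double mutant arf7 arf19 lacks a pair of auxin response factors and was grown under NB and with L344. nph4-1 is mutant in ARF7 alone and was grown under NB and with L344, L359 and RCL115. lbd16-1 is mutant in LBD16, a transcription factor downstream of both ARFs, and was grown under NB and with Acidovorax L76, Sphingomonas L343 and L412, Flavobacterium L359, Pararhizobium L384, Paenibacillus RMF217 and the Chryseobacterium strains L180 and RMF8. gnom184 is mutant in GNOM, a guanine nucleotide exchange factor of membrane traffic needed for polar auxin transport, and was grown under NB and with L196, L339, L469 and RMF27. Each mutant was represented by a single allele combination, whole roots were sampled, and fewer cells of a type and less RNA per cell cannot be told apart.

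The libraries held between 10255732 and 29735838 counts (median 18434824). The 7 root markers checked (SCR, SHR and PHO1 among them) summed to 1008 to 2421 CPM in a library (counts scaled to a common library size by TMM). PHT1;1 had the largest mean of the 7 in Col-0 NB, 874 CPM, against 34.9 CPM for SCR and 26.9 CPM for SHR. The 6 shoot genes, of the light-harvesting and Rubisco families, summed to 83.7 to 5183 CPM, and their part in the results below was not tested. Library numbers in the sample titles fell in a low range and a high range of equal size, and each group had 3 libraries in each. The titles of gnom184 L196 replicate 6 and arf7 arf19 L344 replicate 6 leave the number open between a pair of numbers of the low range, and both were counted in that range. By root mean square distance in log2 CPM over all tested genes, 54 libraries lay closer to the mean of another group than to their own, 51 of them to a group of the same genotype. A pair of gnom184 libraries stood out: NB replicate 2 lay at 0.58 from its own group and 0.47 from nph4-1 RCL115, and L196 replicate 5 at 0.50 from its own group and 0.38 from gnom184 L469. Farthest of all from its own group was arf7 arf19 L344 replicate 5, at 0.76, with a shoot sum of 5183 CPM against 305 to 451 CPM in the other 5 libraries of its group. Col-0 L359 replicate 4 and Col-0 L264 replicate 5 lay slightly closer to a group of lbd16-1 than to their own (0.51 against 0.54 and 0.4498 against 0.4526), with shoot sums of 980 and 1338 CPM against 149 to 294 CPM in the other libraries of their groups. All of these stayed in the tests. Results that rest on the gnom184 pair are also given without it, and without the other 3, a choice made after seeing the data, the counts were 59 higher and 11 lower in Col-0, 36 and 17 in the mutants, 5 differences of response and 8 axenic calls. Of the calls of single members, PIP1A in Col-0 with L264 and with L359 was lost with these 3 libraries, and all 6 calls of arf7 arf19 with L344 were kept. High shoot sums were not confined to these libraries, reaching 3309 CPM in gnom184 L469, 3240 CPM in gnom184 RMF27 and 1986 CPM in nph4-1 RCL115. gnom184 L469 replicate 6 and gnom184 RMF27 replicate 4 each lay at 0.56 from their own group, and no other group was closer. No library of these groups was left out for this reason.

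A pair of the members needs its sequence shown, because reads from them are hard to tell apart. PIP2B (AT2G37170, chr2:15613368-15615022, minus strand) and PIP2C (AT2G37180, chr2:15617635-15619155, plus strand, also known as RD28) lie head to head with 2612 bases between them in the RefSeq annotation of assembly TAIR10.1. Their coding sequences were identical at 94.8% of aligned positions and the encoded proteins at 96.8%. Of the stretches of 31 bases in their transcripts, 27.1% of those of PIP2B were also found in PIP2C and 26.8% of those of PIP2C in PIP2B, whereas each of the other 8 members shared at most 1.69% with all members together. The first 60 coding bases of the pair are shown 5′ to 3′ from RefSeq, with the 6 positions at which they differ in capitals, since such positions are what assigns a read to a copy.
PIP2B: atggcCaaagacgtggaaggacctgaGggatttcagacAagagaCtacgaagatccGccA
PIP2C: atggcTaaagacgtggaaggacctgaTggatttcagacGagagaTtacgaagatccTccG
PIP2B has these bases at chr2:15614732-15614791 on the minus strand and PIP2C at chr2:15617779-15617838 on the plus strand. The longest stretch without a difference was 242 coding bases, from coding position 175 to 416 in both genes, and it is printed because no read inside it can be assigned to either copy.
Shared by PIP2B and PIP2C: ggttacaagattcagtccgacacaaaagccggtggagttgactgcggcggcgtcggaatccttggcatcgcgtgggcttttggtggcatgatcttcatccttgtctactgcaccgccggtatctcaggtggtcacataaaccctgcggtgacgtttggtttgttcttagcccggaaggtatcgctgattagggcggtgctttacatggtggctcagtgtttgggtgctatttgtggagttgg
How the authors' estimated counts divide reads between these copies is therefore uncertain, and their sum is given beside the main results that concern them.

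The other members were more distant from each other. Protein identity ran from 90.9% to 97.2% within PIP1, from 74.5% to 96.8% within PIP2 and from 63.0% to 68.0% between the classes. All 10 genes have 4 exons in their reference transcripts and encode 280 to 291 residues. The 250 bases before each gene's annotated start were searched on both strands for 5 motifs. The G-box CACGTG was found before 0 of the 10 genes and 6.49% of all 27443 RefSeq windows of that length. The GCC-box core GCCGCC was found before 0 and 1.87%, and the auxin response element TGTCTC before 0 and 10.9%. For the W-box forms, TTGACC was found before 0 and 12.2%. The other form, TTGACT, was found before PIP1C, PIP1E and PIP3A, 3 of 10 genes, and before 19.1% of all windows.

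In axenic Col-0 roots the members covered a wide range of levels. Per kilobase of transcript, PIP1B and PIP2A had the highest means, 924 and 884 CPM per kb, followed by PIP2B with 625 and PIP1C with 439 CPM per kb. PIP3A and PIP1A were close to each other at 306 and 303 CPM per kb. PIP2C, PIP1D and PIP1E had means of 143, 137 and 129 CPM per kb, and PIP2F was lowest with 44.4 CPM per kb. The same order of magnitude held in all groups, with group means from 655 to 1095 CPM per kb for PIP2A and from 36.0 to 92.8 CPM per kb for PIP2F. Together the 10 genes took 0.417% to 0.807% of the counts of a library.

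Across the 37 groups PIP2C varied most and PIP1C least, and the sum of PIP2B and PIP2C varied less than PIP2C, with a highest group mean 1.66 times the lowest. The highest group mean was 3.08 times the lowest for PIP2C, 2.58 times for PIP2F, 2.25 times for PIP1D and 2.03 times for PIP3A, and it was 1.39 times for PIP1C. The remaining members, with ratios of 1.67 to 1.87, were PIP2A, PIP2B, PIP1A, PIP1B and PIP1E. At the bottom of the order of PIP2C stood gnom184 RMF27 with 80.5 ± 11.6 CPM (SD, n = 6) and Col-0 RMF27 with 103 ± 13.9 CPM. The next group, lbd16-1 L76, reached 147 ± 43.9 CPM. The lowest groups of PIP2F were arf7 arf19 NB, 52.1 ± 9.88 CPM, and gnom184 NB, 53.5 ± 25.4 CPM, and its highest was Col-0 RMF8, 134 ± 20.5 CPM. For all 10 members, the libraries of any 2 neighbouring groups in the order overlapped.

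In Col-0 most members that changed with bacteria rose. Of the 160 pairs of a member and a strain, 62 were higher and 10 lower than NB at an adjusted p under 0.05 (edgeR quasi-likelihood test, Benjamini-Hochberg over all genes within a contrast), where 12.6% of all gene and strain pairs were higher and 12.8% lower. The 16 contrasts share the 6 Col-0 NB libraries, so they are not separate experiments. The share of all genes called with as many strains was counted only for 12 or more strains. The share whose libraries did not overlap with NB was counted only for libraries above NB. PIP2 genes made up 37 of the higher pairs and 2 of the lower ones, and PIP1 genes 25 and 8. Within the low and the high range of library numbers taken alone, all 72 called pairs kept their direction, while the number called higher was 28 in the low range and 62 in the high range. The pairs were selected on these same libraries together, so the shared direction is in part fixed by the selection.

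PIP2F, a root PIP2 of low level, changed most often and by the largest amount. It rose with 13 of the 16 strains, by 0.50 to 1.07 on the log2 scale. Its difference from NB was positive with all 16, as were those of PIP2B, PIP1D and PIP3A. The share of all genes for which this held was not counted. Genes called higher with 12 or more of the 16 strains were 4.76% of those tested. The 6 NB libraries of PIP2F held 28.6, 68.3, 66.3, 63.8, 74.0 and 84.3 CPM, and its 6 RMF8 libraries 125, 106, 164, 137, 149 and 124 CPM. The groups did not overlap, and the difference was 1.07 ± 0.17 on the log2 scale (SE, adjusted p = 1.26e-07), a 2.09-fold higher level. In NB the first library was apart from the other 5, and without it 12 strains passed the test. RMF8 was followed by L180 with a log2 difference of 0.96 ± 0.17 and by L469 with 0.87 ± 0.17. The strains without a call were RMF217, with 0.42 ± 0.17 (adjusted p = 0.138), RCL115 and L412. With RMF217 the 3 libraries of the high number range held 40.6 to 65.5 CPM and the 3 of the low range 104 to 129 CPM, so that the log2 difference was -0.05 in one range and 0.69 in the other.

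**Figure D1:**
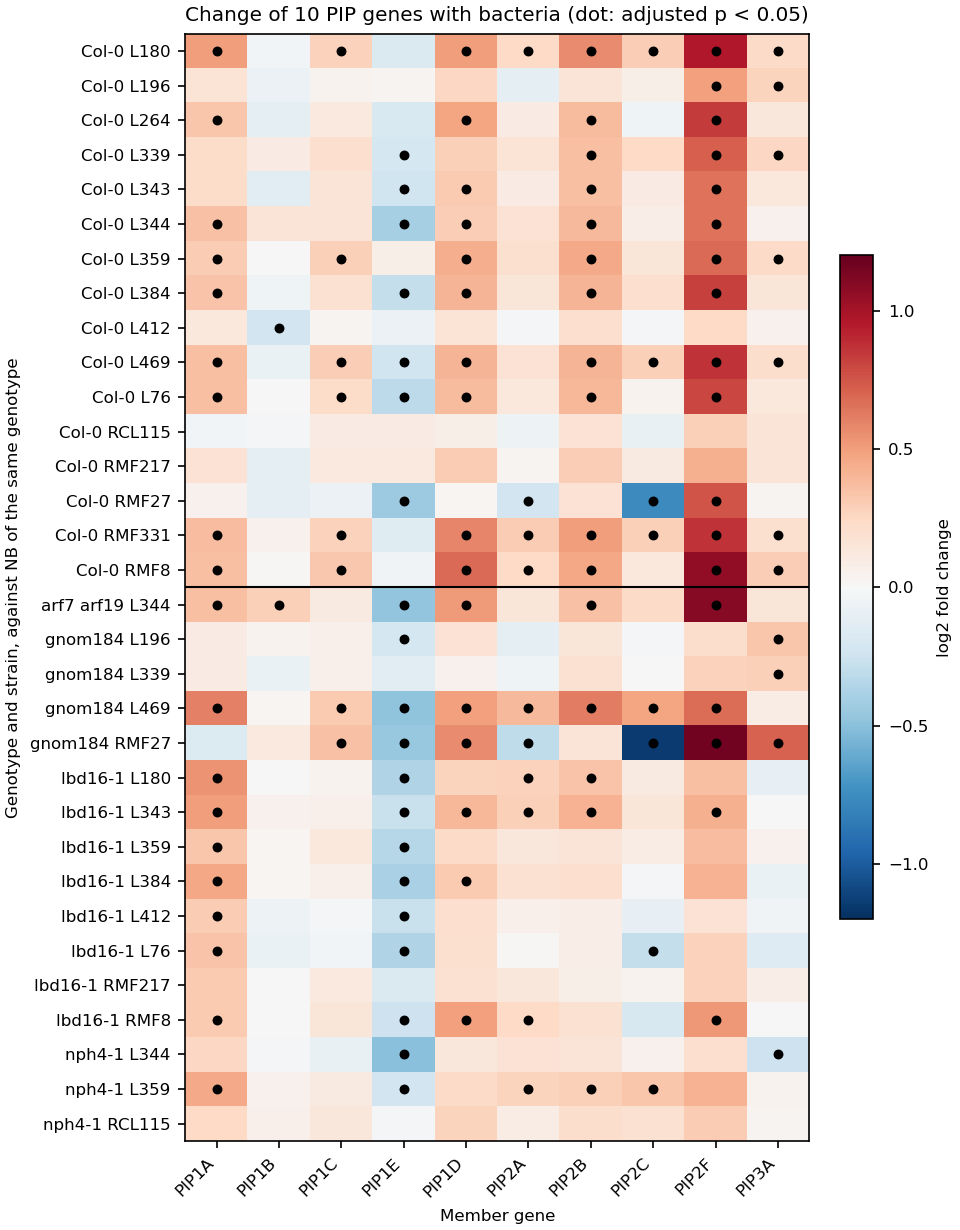
Log2 difference from the NB control of the same genotype for each of the 10 PIP genes (columns) and each genotype and strain (rows), Col-0 above the line and the mutants below it, with a dot on differences at an adjusted p under 0.05. PIP2F, PIP2B, PIP1D and PIP3A are above NB with all 16 strains in Col-0. PIP1E is the member most often called below NB, and PIP2C is lowest in the RMF27 rows.

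PIP2B came next among the PIP2 genes. It rose with 11 strains by 0.36 to 0.56 on the log2 scale. Its NB libraries ran from 634 to 847 CPM with a median of 749.7, and its L180 libraries from 1027 to 1178 CPM with a median of 1133. No library with L180 fell to the range of NB, and the difference was 0.56 ± 0.10 (adjusted p = 1.67e-06). With 9 of the 16 strains every library of PIP2B lay above every NB library, which held for 4.73% of all gene and strain pairs, and with 9 or more strains for 2.39% of genes. When PIP2B and PIP2C were summed to a single row, the sum was called higher with 11 strains. PIP2C alone rose with L180, L469 and RMF331, each by 0.29 ± 0.10, with overlapping ranges, and none of these 3 calls remained when Col-0 NB replicate 3 or replicate 5 was left out.

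PIP3A, which RefSeq lists as PIP3, rose with 7 strains by 0.19 to 0.30 on the log2 scale. Its NB libraries held 394, 492, 500.0, 514, 518 and 522 CPM, so that a single library lay below the other 5. With RMF8 the libraries held 571 to 640 CPM, above all 6 of NB, and the difference was 0.30 ± 0.07 (adjusted p = 0.000601). Without that low NB library PIP3A passed the test with 1 strain. PIP2A, the most abundant PIP2, rose with L180, RMF8 and RMF331 by 0.24, 0.24 and 0.31 and fell with RMF27 by 0.23 on the log2 scale, and without that NB library it was called higher with 1 strain.

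Among the PIP1 genes, PIP1D rose with 10 strains and PIP1A with 9. PIP1D libraries ran from 127 to 225 CPM in NB, with a median of 186, and from 273 to 316 CPM with RMF8, with a median of 288. These groups did not overlap, and the difference was 0.68 ± 0.12 on the log2 scale (adjusted p = 6.64e-07). PIP1A was highest with L180, where its libraries held 633 to 715 CPM against 385 to 554 CPM in NB. The groups were again separate, and the log2 difference was 0.51 ± 0.11 (adjusted p = 9.67e-05). PIP1C rose with 6 strains by 0.22 to 0.32 on the log2 scale, and its libraries overlapped with NB in each. Leaving out Col-0 NB replicate 1, which was the lowest NB library for all 3 genes, gave 7 higher calls of PIP1D, 6 of PIP1A and 2 of PIP1C.

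PIP1E and PIP1B did not follow the other members. PIP1E was higher with none of the strains by edgeR, by DESeq2 or at an unadjusted p under 0.05, and it fell with 7: by 0.44 on the log2 scale with RMF27, 0.40 with L344, 0.32 with L76, 0.29 with L384, 0.24 with L343 and L469 and 0.21 with L339. Its NB libraries held 274, 249, 222, 261, 219 and 221 CPM and its RMF27 libraries 184, 187, 172, 178, 171 and 174 CPM. Every RMF27 library lay below every NB library (SE of the log2 difference 0.08, adjusted p = 2.40e-07). For the other 6 strains the ranges overlapped with NB. The number of strains with a lower PIP1E was 3 in the low number range and 8 in the high one. PIP1B, the most abundant PIP1, fell with L412 by 0.23 on the log2 scale (adjusted p = 0.0312) and passed the test with no other strain, its differences lying between -0.23 and 0.16. That call was lost without Col-0 NB replicate 4 or replicate 5.

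**Figure D2:**
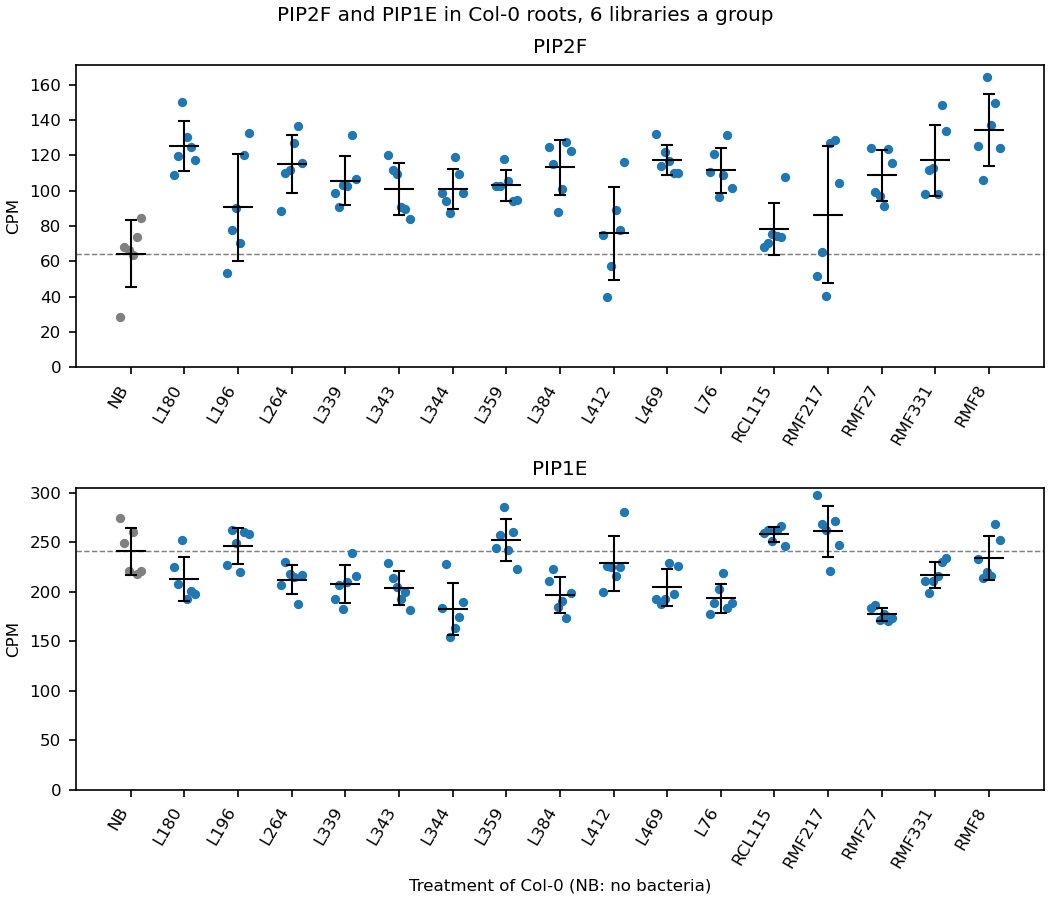
Level (CPM) of PIP2F and PIP1E in each Col-0 library under NB and with the 16 strains. Points are libraries, the black bar is the mean ± SD (n = 6) and the dashed line the NB mean, 64.2 CPM for PIP2F and 241 CPM for PIP1E. PIP2F means lie above the line with all strains, and the PIP1E libraries with RMF27 all lie below those of NB.

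By strain, the members called ranged from 0 to 8 of 10. L180 and RMF331 each raised 8 members, where 16.9% of all genes were higher and 16.9% lower with L180 and 13.6% and 13.6% with RMF331. RMF8 raised 7 (17.3% of all genes higher, 16.6% lower), L469 raised 7 and lowered 1 (17.7% and 17.5%), and L359 raised 6 (8.45% and 6.64%). L76 raised 5 and lowered 1 (13.2% and 14%). L344 and L384 each raised 4 and lowered 1 (15.7% and 15.4% for L344, 12.9% and 14.7% for L384), and L264 raised 4 (16.9% and 16.6%). L339 and L343 each raised 3 and lowered 1 (12.2% and 12.6% for L339, 17.4% and 17.9% for L343). L196 raised 2 (10.5% and 10.7%). L412 lowered 1, PIP1B (4.77% and 6.86%). RMF217 and RCL115 called 0 members by edgeR and 0 by DESeq2, with 4 and 1 higher at an unadjusted p under 0.05, and few genes as a whole (1.9% and 2.16% for RMF217, 0.143% and 0.31% for RCL115). RMF27 raised 1 member and lowered 3 (21.7% and 22.6%). The median log2 difference of the 10 members was -0.03 with RMF27 and 0.04 to 0.31 with the other 15 strains, where the median over all genes tested was between -0.0048 and 0.011.

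In the mutants the same comparison was made between a strain and NB of the same genotype. Contrasts within a mutant share its 6 NB libraries, so they are not separate experiments either. Of 160 pairs, 39 were higher and 17 lower, against 12.9% and 10.8% of all gene and contrast pairs. PIP1A rose in 10 of the 16 mutant contrasts, PIP1D in 6, PIP2A, PIP2B and PIP2F in 5 each, PIP3A in 3, PIP1C and PIP2C in 2 each and PIP1B in 1. PIP1E fell in 13, which was 13 of the 17 lower pairs. The share of all genes called in as many mutant contrasts was not counted, nor was the share whose libraries did not overlap with NB. The direction was the same in both ranges of library numbers for 55 of the 56 called pairs. These pairs too were selected on the same libraries. Without the 2 gnom184 libraries named above, a choice made after seeing the data, 45 pairs were higher and 16 lower.

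The fall of PIP1E was found in all 4 mutants. In nph4-1 its 6 NB libraries held 199, 215, 203, 190, 197 and 185 CPM and its 6 L344 libraries 147, 141, 129, 151, 138 and 131 CPM. The libraries did not overlap, and the log2 difference was -0.50 ± 0.08 (adjusted p = 1.63e-08). arf7 arf19 with L344, gnom184 with L469 and gnom184 with RMF27 fell by 0.48, 0.48 and 0.46, also without overlap. In lbd16-1 PIP1E fell with 7 of 8 strains, by 0.25 to 0.39 on the log2 scale, and RMF217 was the exception. Within the low range of library numbers 7 of the 16 mutant contrasts passed for PIP1E, and within the high range 13.

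**Figure D3:**
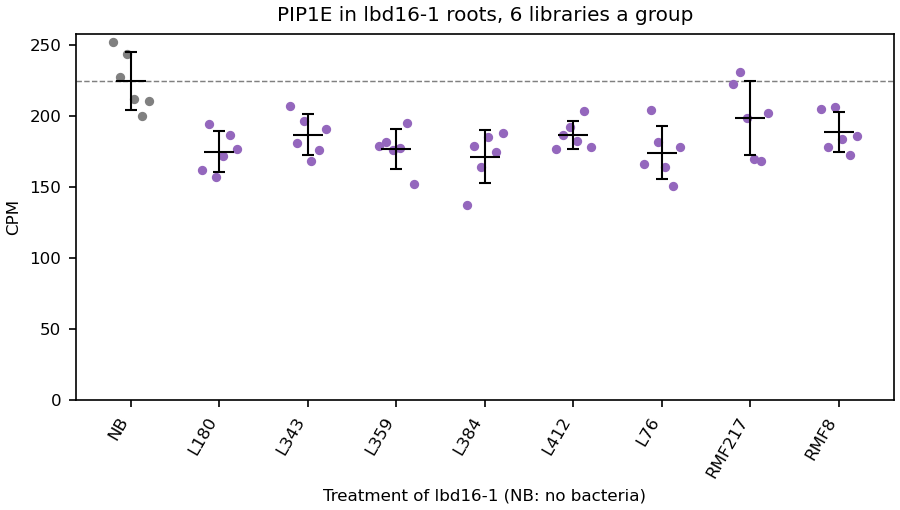
PIP1E level (CPM) in each lbd16-1 library under NB and with 8 strains, with the mean ± SD (n = 6) as a black bar and the NB mean, 225 CPM, as a dashed line. The strain means lie between 172 and 199 CPM, all below the line.

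By contrast, the members called in the mutants ranged from 0 to 8 of 10. gnom184 with L469 raised 7 and lowered 1 (15.9% of all genes higher, 12.5% lower), gnom184 with RMF27 raised 4 and lowered 3 (32.7% and 28.8%), gnom184 with L196 raised 1 and lowered 1 (18.7% and 17.3%) and gnom184 with L339 raised 1 (18.9% and 14.9%). arf7 arf19 with L344 raised 5 and lowered 1 (19.6% and 14.8%). lbd16-1 with L343 raised 5 and lowered 1 (13.1% and 11.4%), with RMF8 raised 4 and lowered 1 (15% and 12.2%), with L180 raised 3 and lowered 1 (11.4% and 10.6%) and with L384 raised 2 and lowered 1 (11.4% and 9.83%). With L359, L412 and L76, lbd16-1 raised 1 each and lowered 1, 1 and 2 (9.04% and 7.22%, 7.15% and 5.74%, 11.2% and 9.52%). nph4-1 with L359 raised 4 and lowered 1 (7.68% and 5.57%), and with L344 it lowered 2 (11.8% and 11.2%). lbd16-1 with RMF217 (3% and 1.85%) and nph4-1 with RCL115 (0.00924% and 0%) called 0 members by edgeR and 0 by DESeq2, with 2 and 3 at an unadjusted p under 0.05.

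In gnom184 with L469, PIP2B libraries held 909 to 1128 CPM against 539 to 978 CPM in gnom184 NB. The log2 difference was 0.61 ± 0.10 (adjusted p = 1.53e-07), and the groups overlapped only through NB replicate 2. The sum of PIP2B and PIP2C rose by 0.58 ± 0.10. PIP1A rose there by 0.61 ± 0.11 as well, from a range of 381 to 645 CPM to one of 660 to 800 CPM. In arf7 arf19 with L344, PIP2F rose from libraries of 42.8 to 70.0 CPM to libraries of 97.4 to 121 CPM. The groups were separate, and the log2 difference was 1.09 ± 0.17 (adjusted p = 3.71e-08). PIP3A, which L344 did not change in Col-0 by the test, fell in nph4-1 with L344 from 494 to 555 CPM to 378 to 477 CPM, a log2 difference of -0.25 ± 0.07. The difference between these 2 responses to L344, -0.30 ± 0.10, was not called (adjusted p = 0.0695). PIP2C in lbd16-1 with L76 was called lower by 0.28 on the log2 scale, but its libraries were split by number range, with 95.7 to 125 CPM in the low range and 180 to 193 CPM in the high one. Its log2 difference from NB was -0.76 in the low range and 0.07 in the high range. In the sum of PIP2B and PIP2C this fall was not seen, with a difference of 0.011 ± 0.10 (adjusted p = 0.964).

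Whether a mutant responded to a strain differently from Col-0 was tested by the interaction in the same fit. Of 160 pairs, 5 were called, 3 with a more positive response in the mutant and 2 with a more negative one, where 5.4% of all gene and contrast pairs were called. The first 4 were in gnom184 with RMF27, a contrast in which 22.9% of all genes were called, and the fifth was PIP1E in lbd16-1 with L359, where 3.88% were called. In that last pair, PIP1E libraries of lbd16-1 held 200.3 to 252 CPM under NB and 152 to 195 CPM with L359. Those of Col-0 held 219 to 274 CPM under NB and 223 to 286 CPM with L359. The L359 libraries of lbd16-1 were thus all below its NB libraries while those of Col-0 overlapped with theirs, and the difference of the responses was -0.41 ± 0.11 (adjusted p = 0.0109). It was -0.50 within the high number range and -0.32, with an adjusted p of 0.204, within the low one. In the other 14 mutant contrasts 0 members were called in the interaction by edgeR and 1 by DESeq2. At an unadjusted p under 0.05 there were 19 pairs, each with a more negative response in the mutant. The share of all genes at that p was not counted, and these contrasts share NB libraries.

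RMF27, a Bacillus megaterium strain, was the only strain of the 16 with which PIP2C was called lower in Col-0, and it was called lower in gnom184 as well. PIP2C libraries of Col-0 held 186, 185, 161, 200.2, 146 and 167 CPM under NB and 109, 118, 82.9, 112, 106 and 88.2 CPM with RMF27. Those of gnom184 held 160, 212, 187, 160, 162 and 191 CPM under NB and 94.7, 85.8, 84.8, 72.8, 83.2 and 61.5 CPM with RMF27. In both genotypes all libraries with RMF27 lay below all NB libraries. Of all genes, 22.6% were called lower with RMF27 in Col-0 and 28.8% in gnom184, and the share with separate libraries was not counted. The log2 difference of PIP2C was -0.76 ± 0.10 in Col-0 (adjusted p = 6.05e-11) and -1.15 ± 0.10 in gnom184 (adjusted p = 3.17e-21). These values correspond to 0.59 and 0.45 times the NB level, and they kept their direction and their call under all 18 alternatives run in Col-0 and 19 in gnom184 in which PIP2C had a row of its own, between -0.81 and -0.72 in Col-0 and between -1.27 and -1.11 in gnom184.

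Its neighbour PIP2B did not fall with RMF27. PIP2B libraries of Col-0 held 634 to 847 CPM under NB and 780.5 to 905 CPM with RMF27, and the log2 difference of 0.18 ± 0.10 was not called (adjusted p = 0.152). In gnom184 it was 0.15 ± 0.10 (adjusted p = 0.186). The share of PIP2C in the summed level of the pair was 16.9% to 22.7% in the Col-0 NB libraries and 9.51% to 11.7% in those with RMF27, and 17.8% to 22.9% and 8.97% to 10.8% in gnom184. The summed pair differed from NB by 0.02 ± 0.10 in Col-0 (adjusted p = 0.897) and by -0.05 ± 0.10 in gnom184 (adjusted p = 0.655). Over all 37 groups the mean share of PIP2C was lowest in both RMF27 groups, 9.82% and 10.7%, and highest in arf7 arf19 NB, 22.3%.

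**Figure D4:**
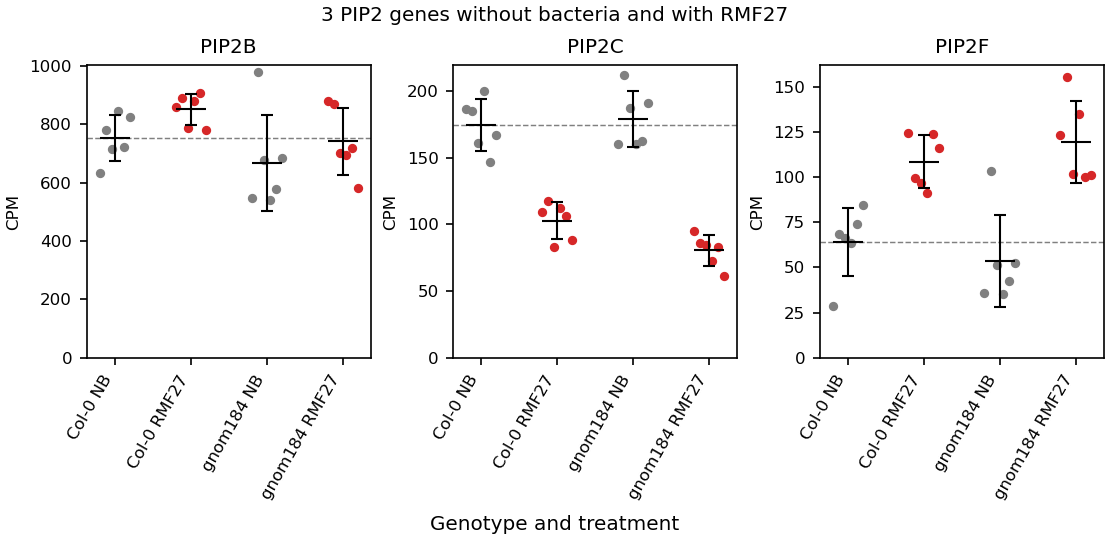
Level (CPM) of PIP2B, PIP2C and PIP2F in Col-0 and gnom184 libraries under NB and with RMF27. Points are libraries, bars the mean ± SD (n = 6) and dashed lines the mean of Col-0 NB. PIP2C libraries with RMF27 lie at 61.5 to 118 CPM, all below the 146 to 212 CPM of NB, whereas PIP2F means are higher with RMF27 and PIP2B ranges overlap.

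PIP2F moved the other way. Its Col-0 libraries ran from 91.4 to 124 CPM with RMF27, above the 28.6 to 84.3 CPM of NB, and the log2 difference was 0.76 ± 0.17 (adjusted p = 9.03e-05). In gnom184 it rose by 1.16 ± 0.17 (adjusted p = 1.34e-09), from NB libraries of which 5 held 35.2 to 52.7 CPM and replicate 2 held 103 CPM, to 99.8 to 155 CPM. PIP1E and PIP2A fell in both genotypes, PIP2A by 0.23 ± 0.09 in Col-0 and 0.30 ± 0.09 in gnom184 on the log2 scale, with overlapping ranges in each.

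PIP3A, PIP1D and PIP1C rose with RMF27 in gnom184 and were not called with RMF27 in Col-0. PIP3A libraries of gnom184 held 306 to 504 CPM under NB and 509.7 to 655 CPM with RMF27, without overlap, a log2 difference of 0.71 ± 0.07 (adjusted p = 9.09e-17). In Col-0 they held 394 to 522 CPM and 462 to 551 CPM, a difference of 0.04 ± 0.07. The responses differed by 0.67 ± 0.10 (adjusted p = 7.59e-08), and this interaction was called under all 26 alternatives run. For PIP1D the responses differed by 0.55 ± 0.16 (adjusted p = 0.00845) and for PIP1C by 0.43 ± 0.12 (adjusted p = 0.00286). Within the high number range these were 0.27 and 0.36 and were not called, and that of PIP1D was also lost with only the groups of the contrast in the fit (adjusted p = 0.0791). For PIP2C the fall was larger in gnom184 by 0.39 ± 0.14 (adjusted p = 0.0377), and that call was lost without NB replicate 2 of the mutant (-0.33, adjusted p = 0.101), without either mutant NB replicate 3 or Col-0 NB replicate 5, within the high number range (-0.33, adjusted p = 0.162), with only the groups of the contrast in the fit (adjusted p = 0.0849) and with adjustment over all 16 interaction contrasts (adjusted p = 0.1001). For the sum of PIP2B and PIP2C the responses differed by -0.07 ± 0.14 (adjusted p = 0.758). Without the 2 gnom184 libraries named above the difference of responses was also called for PIP1B (0.32, adjusted p = 0.0125) and PIP2F (0.66, adjusted p = 0.0255), and no longer for PIP2C (-0.37, adjusted p = 0.0545).

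Markers of cell types moved with RMF27 and with other strains. Over the 16 Col-0 strains, the root hair markers EXPA7 and COBL9 were each called higher with 13 and the endodermis markers SCR, CASP1 and MYB36 with 9, 4 and 4, while each of the 3 xylem markers was called lower with 1. With RMF27 the summed root hair markers were 56.4 to 84.6 CPM in Col-0 NB and 208 to 243 CPM with RMF27, and 26.6 to 72.0 CPM and 191 to 327 CPM in gnom184, and both genes were called higher in both genotypes. All 3 xylem markers, VND7, XCP1 and XCP2, were called lower in both, their sum going from 221 to 301 CPM to 161 to 198 CPM in Col-0 and from 220 to 325 CPM to 118 to 167 CPM in gnom184. Of 3 endodermis markers, SCR and MYB36 were called higher in Col-0 and SCR, MYB36 and CASP1 in gnom184. Of the other root markers, PHT1;1 and PHO1 were called lower with RMF27 in both genotypes, and SHR was called in neither. The log2 differences of PHT1;1 and PHO1 were -0.50 and -0.23 in Col-0 and -1.21 and -0.95 in gnom184. Over the 16 Col-0 strains PHT1;1 was called higher with 8 and PHO1 with 4. The part of these shifts in the PIP values, with RMF27 and with the other strains, was not tested.

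Without bacteria, 8 of 40 pairs of a member and a mutant differed from Col-0 NB, 7 of them lower. Of all genes, 4.16% to 25.7% were lower and 2.45% to 20.8% higher, depending on the mutant. The share of all genes whose libraries did not overlap with Col-0 NB was not counted. In arf7 arf19, PIP1B, PIP3A and PIP1E were lower where 25.7% of all genes were lower and 20.8% higher. PIP1B libraries held 1283, 1371, 1349, 1514, 1406 and 1446 CPM in Col-0 and 924, 876, 775, 912, 828 and 735 CPM in arf7 arf19. The groups were far apart, with a log2 difference of -0.73 ± 0.08 (adjusted p = 1.97e-16). PIP3A libraries held 245 to 324 CPM in arf7 arf19, below the 394 to 522 CPM of Col-0, and the difference was -0.72 ± 0.07 (adjusted p = 1.25e-16). Both were called in each range of library numbers, with -0.61 and -0.80 for PIP1B and -0.65 and -0.74 for PIP3A in the high and the low range. PIP1E differed by -0.25 ± 0.08 with overlapping ranges, and its call was lost within the low range (-0.16, adjusted p = 0.236). Cell type markers moved with these values. In arf7 arf19 all 3 endodermis markers and both root hair markers were called lower and 2 of 6 shoot genes higher, with endodermis sums of 93.1 to 155 CPM against 155 to 216 CPM in Col-0, root hair sums of 33.3 to 44.3 against 56.4 to 84.6 CPM and shoot sums of 480 to 922 against 202 to 367 CPM. Of the xylem markers, VND7 was called lower (-0.45 on the log2 scale) and XCP1 higher (0.22). The part of all these markers in the PIP values was not tested.

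In gnom184, PIP1B was lower by 0.42 ± 0.08, PIP1D by 0.46 ± 0.12 and PIP3A by 0.46 ± 0.07 on the log2 scale (17.5% of all genes lower, 14.5% higher). NB replicate 2 of gnom184 lay within the range of Col-0 for all 3, at 1436, 205 and 504 CPM, while the other 5 libraries held 869 to 1039 CPM of PIP1B, 101 to 135 CPM of PIP1D and 306 to 345 CPM of PIP3A. None of the 3 passed within the high number range, which holds that library (-0.22, -0.10 and -0.26). Without the 2 libraries named above, 11 of the 40 axenic pairs were called, the further ones being PIP1C (-0.24), PIP2B (-0.31) and PIP2F (-0.55) in gnom184. In gnom184 NB the same 5 endodermis and root hair markers and the xylem marker VND7 (-0.38) were called lower, and 5 of 6 shoot genes higher. Endodermis sums were 93.3 to 191 CPM, root hair sums 26.6 to 72.0 CPM and shoot sums 263.6 to 1438 CPM. The part of these markers in the PIP values of gnom184 was not tested. In nph4-1, PIP1E was lower by 0.28 ± 0.08 without overlap, and PIP2F was higher by 0.62 ± 0.17 (7.07% of all genes lower, 6.07% higher). The call of PIP1E was lost within the low number range (adjusted p = 0.0822). That of PIP2F was lost within the low range (0.45, adjusted p = 0.16), with only the groups of the contrast in the fit (adjusted p = 0.0675) and without Col-0 NB replicate 1 (0.46, adjusted p = 0.0677). In lbd16-1 edgeR and DESeq2 called 0 members, and 2 were higher at an unadjusted p under 0.05 (4.16% of all genes lower, 2.45% higher).

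**Figure D5:**
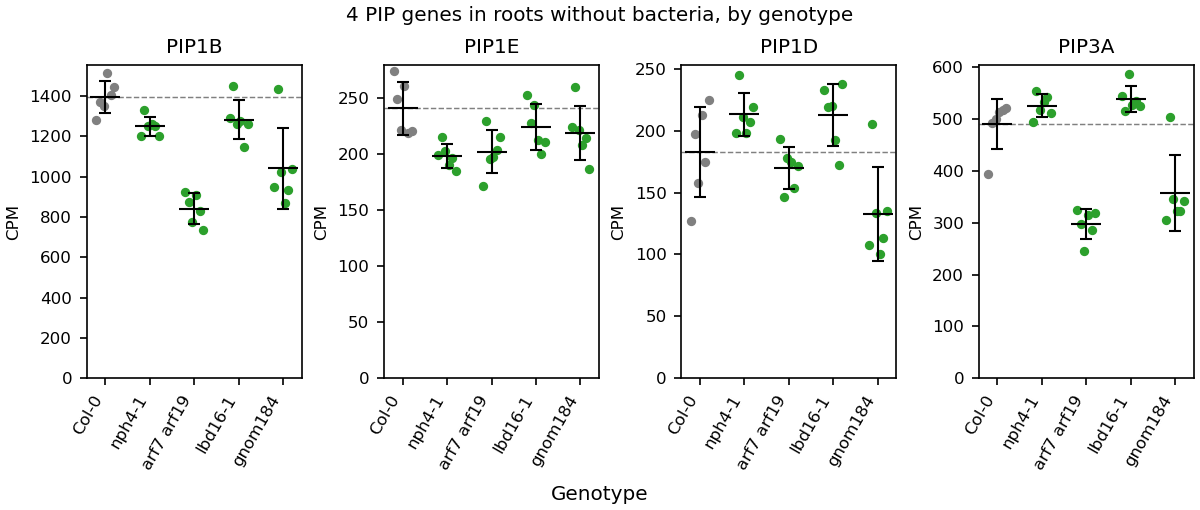
Level (CPM) of PIP1B, PIP1E, PIP1D and PIP3A in NB libraries of Col-0 and the 4 mutants, with the mean ± SD (n = 6) as a black bar and the Col-0 mean as a dashed line. PIP1B and PIP3A libraries of arf7 arf19 lie below all those of Col-0, and the gnom184 library at 1436 CPM of PIP1B is NB replicate 2.

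Most pairs of members had a positive correlation over the groups, and pairs of other genes were not counted for comparison. Over the 37 group means of log2 CPM, the 45 pairs of members had Pearson correlations from -0.34 to 0.87 with a median of 0.55, as a description, since groups share genotypes and libraries share a depth scale. The highest was between PIP2B and PIP1A. Of the 45 pairs 7 were negative, and the lowest were those of PIP1E with PIP1A and with PIP2F, both -0.34. PIP2C had -0.15 with PIP3A and 0.006 with PIP2F, and its highest was 0.67, with PIP2A. With the mean of the standardized levels of the 10 members, the most alike of the other tested genes were KCS5 (r = 0.91), which encodes a 3-ketoacyl-CoA synthase of very-long-chain fatty acid synthesis, AT5G46900 (0.90), AT1G19900 (0.90), ATCSLB05 (0.89), of the cellulose synthase-like family, and AT4G23870 (0.88). The most alike to PIP3A alone, chosen after the values were seen, were AGP7 (0.95), an arabinogalactan protein gene, EXPB1 (0.95), an expansin gene, and ACT11 (0.94), an actin gene. The summed level of the members was lowest in arf7 arf19 NB, 4756 ± 199.8 CPM, and gnom184 NB, 4997 ± 873 CPM, against 5842 ± 441 CPM in Col-0 NB, and highest in Col-0 RMF331, 7047 ± 755 CPM.

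The rest of the aquaporin family was counted as a list beside the members. The other PIP genes, PIP2;5, PIP2;6 and PIP2;8, were near 10 CPM in Col-0 NB and were higher in 1 and lower in 12 of 48 pairs with the Col-0 strains. All list counts here stand beside the 12.6% higher and 12.8% lower of all gene and strain pairs. Of 10 tonoplast intrinsic proteins (TIPs), which carry water across the vacuole membrane, 6 were tested, and they were higher in 45 and lower in 2 of 96 pairs. TIP1;2 rose with 12 strains and TIP2;1 with 13. Of 9 NIPs, which carry small solutes such as boric acid, 7 were tested, with 17 pairs higher and 15 lower of 112, close to those shares, and NIP3;1 rose with 13 strains. The 3 SIPs, of internal membranes, were lower in 25 of 48 pairs, SIP2;1 with 13 strains. Genes called lower with 12 or more strains were 5.33% of those tested. The median over the tested genes of a list of the mean log2 difference from NB was 0.31 for TIPs, -0.04 for NIPs, -0.14 for SIPs and -0.17 for the other PIP genes. Among TIPs chosen after their values were seen, with RMF27 TIP2;3 was called lower in Col-0 and TIP2;2 fell by 0.59 ± 0.15, while TIP2;1 rose by 1.15 ± 0.16, so that falls and rises occurred side by side in the TIPs as in the PIPs.

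The 8 listed genes known to act on PIP proteins, through membrane traffic, phosphorylation or degradation, gave 29 higher and 25 lower pairs of 128. The lower pairs were all of OST1, a kinase of abscisic acid signalling, with 12 strains, and TSPO, known to route PIP3A to degradation, with 13. TSPO was low, at 2.23 CPM in Col-0 NB, and its mean log2 difference over the strains was -1.10. OST1 was at 22.6 CPM with a mean difference of -0.40. The other 6 genes, SYP121, SYP61, SIRK1, QSK1, CPK7 and BAK1, gave all 29 higher pairs.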

How the data were processed

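Root RNA of 222 samples was sequenced on an MGISEQ-2000. Per the labels, the authors trimmed reads with fastp (0.20.1) and quantified transcripts with Salmon (1.6.0), which their methods describe as run against Arabidopsis transcripts of Ensembl Plants and summed to genes with tximport. The deposited table holds expected counts per gene, as whole numbers, with no normalization; the assembly name, the tximport scaling and the use of strand are not given in the sources used here. Library totals set the precision, and intervals cover the spread between these samples, of which the labels do not say how they share plants or days. Groups follow the genotype and treatment labels. Genes were filtered with filterByExpr, scaled by TMM and fitted with edgeR (4.0.16, limma 3.58.1, R 4.3.3) in 1 model of 37 groups, robust quasi-likelihood, with Benjamini-Hochberg adjustment over 21635 genes within each of 52 contrasts and calls at an adjusted p under 0.05. Each SE of a log2 difference was back-calculated from the F statistic of its test. The test was checked on counts simulated for Col-0 RMF27 against NB, in which 5.15% of edgeR calls and 9.22% of DESeq2 calls were false. The simulated counts held no difference between number ranges and few changed genes, so the check does not cover these features of the data. DESeq2 (1.42.0) was an alternative, beside other scaling, filters, thresholds, sample sets, library number ranges and single libraries left out. CPM are from TMM-scaled library sizes. All 10 members are named; of the listed genes, those called in the same direction with at least 12 of 16 Col-0 strains; and the 5 other tested genes most alike to the mean of the members. The TIP genes named with RMF27 and the genes most alike to PIP3A fall outside this rule and were chosen after their values were seen, as were the alternatives without 2 gnom184 libraries and without 3 further libraries. The members and lists were chosen with earlier results of these data known. Sequences, gene models and windows, and identities of proteins translated from the coding sequences, come from RefSeq, assembly TAIR10.1, and all 10 members matched by locus.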

Additional observations from a re-analysis of the deposited data

Results flagged for a closer look

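In sets of 6 libraries of 1 group, 30 of 370 sets (8.11%) had a library set apart from the other 5 by Dixon's criterion at 95%, where chance gives about 1 set in 20. Of these 30 sets, 6 were of gnom184 NB. Values are in CPM, with the range of the other 5 libraries where it helps. In gnom184, NB replicate 2 was highest for PIP1B at 1436 (others 869 to 1039), for PIP1C at 801 (533 to 611), for PIP1D at 205 (101 to 135), for PIP2B at 978 (539 to 683), for PIP2F at 103 (35.2 to 52.7) and for PIP3A at 504 (306 to 345). It was thus apart in the same direction for all 6. The gnom184 library L196 replicate 5 was highest for PIP1A at 683 (409 to 496), for PIP2A at 1526 (1030.1 to 1181) and for PIP2B at 940.4 (641 to 726). The other gnom184 libraries apart were L469 replicate 5 for PIP1E at 184 (145 to 156) and L339 replicate 3 for PIP2F at 86.6 (55.3 to 63.8).

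In Col-0, NB replicate 1 was low for PIP2F at 28.6 (63.8 to 84.3) and for PIP3A at 394 (492 to 522), and this library enters all 16 Col-0 contrasts. Low values were also held by L339 replicate 2, RMF27 replicate 6 and L384 replicate 3 for PIP1B, at 1345, 1158 and 1183, by L344 replicate 1 for PIP2A at 1404 and by L344 replicate 4 for PIP3A at 460.3. High values were those of L469 replicate 6 for PIP1A at 649, L412 replicate 6 for PIP1E at 281 (199.6 to 226) and RCL115 replicate 6 for PIP2F at 108 (68.2 to 75.6).

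In lbd16-1, L384 replicate 4 was high for PIP1D at 331 (227 to 263) and for PIP2A at 1946 (1427 to 1612), and L343 replicate 6 for PIP1C at 903 and for PIP3A at 601. RMF217 replicate 3 was low for PIP1C at 673 and for PIP3A at 489. The remaining lbd16-1 libraries were L359 replicate 6, low for PIP1B at 1181, and RMF8 replicate 1, high for PIP3A at 621. In arf7 arf19, L344 replicate 2 was high for PIP3A at 416 (297 to 328).

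By the interaction in the edgeR fit, the response differed between a mutant and Col-0 for 5 of 160 pairs of member and strain. Of all gene and contrast pairs 5.4% were called. In gnom184 with RMF27 the mutant response minus that of Col-0 was 0.43 for PIP1C, 0.55 for PIP1D, -0.39 for PIP2C and 0.67 for PIP3A on the log2 scale. In lbd16-1 with L359 it was -0.41 for PIP1E. These contrasts called 22.9% and 3.88% of all genes. The call of PIP2C was lost under 9 of 25 alternatives, that of PIP1E under 3 of 26 and those of PIP1C and PIP1D under 2 of 26 each. That of PIP3A was kept under all 26.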

How the results depend on the processing

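With bacteria, Col-0 members called higher went from 62 to 28 when only libraries of the low number range were used and to 17 with a limit of 0.5 on the absolute log2 difference, and those called lower from 10 to 5 and 1. In the mutants, 39 higher became 23 in the high range and 10 with the limit, and 17 lower became 10 in the low range and 2 with the limit. The 5 called differences of response became 3 in the high range, 3 with only the groups of a contrast in the fit, 3 at an adjusted p under 0.01 and 2 with the limit, and the 8 axenic calls became 3 with the limit. The stricter limits call fewer by their construction. The ranges are of equal size, and the high range called 62 higher and 10 lower in Col-0, so the cause of the drop in the low range was not tested. Leaving out 1 NB library at a time (no library with a strain was left out in this way) gave 43 to 66 higher and 8 to 12 lower in Col-0, 32 to 44 higher and 14 to 17 lower in the mutants, 4 to 6 (Col-0 NB) or 4 to 7 (mutant NB) differences of response, and 8 to 9 or 8 to 12 axenic calls. Col-0 NB replicate 1 gave the 43, with 20 of the Col-0 calls lost. A single called pair changed direction, PIP2C in lbd16-1 with L76, 0.073 in the high number range; the cause was not tested. DESeq2 called 60 higher and 12 lower in Col-0 and 38 and 17 in the mutants, and RLE size factors gave the same 4 counts. No paired analysis was possible because the labels give no replicate numbers. With the range of the library number as a covariate the counts were 62 and 11 in Col-0, 39 and 17 in the mutants, 5 differences of response and 8 axenic calls.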
